A study of Mus musculus with 17 samples.

Results

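The genes described here are 36 members of glycolysis and of the transcriptional response to low oxygen, found among the 15062 genes of a count table from C2C12 cells, a mouse myoblast line. They were the rows of the table whose symbol stood in a list of 37 symbols, of which Ero1l and Ero1a name 1 gene, and all 36 genes were present. The list holds glucose and lactate carriers (3), glycolytic enzymes (17), regulators of glycolytic flux (3), the HIF subunit Hif1a with 2 prolyl hydroxylases, and 10 further hypoxia-response genes.

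The series compared C2C12 lines that expressed the vector pMSCV alone, SRF, or 1 of 4 fusions of SRF with a partner gene, in a study of SRF fusions found in soft tissue tumours. SRF is serum response factor, a transcription factor of the muscle and cytoskeletal programmes. The fusions were SRF-FOXO1, SRF-ICA1L and SRF-RELA, with 3 libraries each like pMSCV and SRF, and SRF-PDGFRB, with 2. Each of the 17 libraries carried a replicate number in its title. The cells were grown in DMEM with 10% fetal bovine serum, and no oxygen level, low-oxygen arm, serum withdrawal or differentiation step is named for any library. The labels do not say whether a line was a clone or a pool, whether the replicates were separate cultures, or what a replicate number stands for, so the p-values measure the spread between these libraries, which may be technical. In such bulk samples, fewer cells of a type and less RNA per cell cannot be told apart.

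Glycolysis converts glucose to pyruvate in the cytosol, and lactate dehydrogenase turns pyruvate into lactate, which leaves the cell through a monocarboxylate carrier. Hypoxia-inducible factor (HIF) consists of an alpha subunit, such as the one encoded by Hif1a, and a stable partner, and prolyl hydroxylases mark the alpha subunit for destruction when oxygen is present. When it escapes destruction, HIF binds a short DNA motif and raises transcription of most glycolytic enzymes, glucose carriers, Vegfa and many other genes, in muscle cells as elsewhere.

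The core letters of that motif, ACGTG or GCGTG, were searched on both strands in the 250 bases before each RefSeq start (GRCm38.p6). Starts were given for 33 of the 36 genes, and Slc2a3, Bhlhe40 and Ndrg1 had no entry. The core was present before at least 1 start in 30 of the 33 genes (90.9%), against 41.5% of all 27025 genes with a window. By window, 38 of 49 held it (77.6%), against 38.6% of all 32851 windows. It stood before at least 1 start in all 10 genes that were lower in libraries of replicate number 3, as described below, and in 20 of the 23 others (87%). By window the split ran the other way, with 11 of 17 windows (64.7%) of the genes lower in number 3 and 27 of 32 (84.4%) of the others. For 40 of the 49 windows, bases just after the start were found in an annotated transcript of the gene. Those not found include the only windows of Hif1a, Egln3, Pgam1 and Eno3 and the Vegfa window with a core, all counted above. The background holds all RefSeq genes, whether or not they were in the count table. A match is a description of the letters and not evidence of binding. The stretches shown belong to 4 genes whose level followed the replicate number and to Pgk1, a glycolytic enzyme whose gene did not pass that test, and each is written 5′ to 3′ on the strand of its gene, with the core letters or their reverse complement in capitals. The Hk2 stretch is chr6:82774455-82774704 (minus strand), the Pdk1 stretch chr2:71872974-71873223 (plus), the Ddit4 stretch chr10:59951835-59952020 (minus), the Slc2a1 stretch chr4:119108495-119108710 (plus) and the Pgk1 stretch chrX:106186850-106187099 (plus). All 5 lie directly upstream of the annotated gene. The Slc2a1 and Ddit4 stretches are shorter than the 250 bases searched, since they were cut at the annotated start of the gene, to 216 and 186 bases.
Slc2a1: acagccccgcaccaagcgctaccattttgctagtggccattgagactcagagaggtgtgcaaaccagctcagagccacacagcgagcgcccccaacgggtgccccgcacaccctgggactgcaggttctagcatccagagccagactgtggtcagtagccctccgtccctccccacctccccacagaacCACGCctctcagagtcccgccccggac
Hk2: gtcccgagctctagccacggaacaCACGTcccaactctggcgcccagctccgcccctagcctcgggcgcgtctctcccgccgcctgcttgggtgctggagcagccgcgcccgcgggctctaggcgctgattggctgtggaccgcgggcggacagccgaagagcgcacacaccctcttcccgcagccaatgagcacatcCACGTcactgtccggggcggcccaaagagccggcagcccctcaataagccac
Pdk1: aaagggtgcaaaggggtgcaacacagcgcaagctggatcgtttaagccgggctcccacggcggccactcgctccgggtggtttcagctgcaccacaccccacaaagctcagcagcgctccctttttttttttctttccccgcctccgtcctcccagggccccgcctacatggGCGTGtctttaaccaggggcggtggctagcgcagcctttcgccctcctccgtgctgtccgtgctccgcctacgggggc
Ddit4: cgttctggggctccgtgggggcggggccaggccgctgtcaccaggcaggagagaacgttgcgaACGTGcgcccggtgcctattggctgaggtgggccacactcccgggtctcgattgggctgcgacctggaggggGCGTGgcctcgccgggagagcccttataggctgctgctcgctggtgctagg
Pgk1: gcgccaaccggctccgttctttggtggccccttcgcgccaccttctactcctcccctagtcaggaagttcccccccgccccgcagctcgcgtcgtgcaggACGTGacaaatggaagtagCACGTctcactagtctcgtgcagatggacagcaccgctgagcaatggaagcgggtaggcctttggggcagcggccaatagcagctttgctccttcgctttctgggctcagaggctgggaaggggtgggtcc

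Pgk1 carried 2 cores within a short distance, Hk2 and Ddit4 carried 2 each further apart, and Pdk1 carried 1. The Slc2a1 stretch shows 1, and the whole window of Slc2a1 held 2, the other running across the end of the stretch shown. The window at the annotated Vegfa start held no core, and a second RefSeq start inside the gene held 2. Most genes held a core whether or not their level followed the replicate number.

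Library totals lay between 20901442 and 23543734 counts. Counts are given as CPM, a level per library relative to its total count, after TMM scaling (trimmed mean of M values) to make libraries comparable. Srf stood at 66.6 to 93.8 CPM in pMSCV and 678 to 1673 CPM in SRF. It stood at 121 to 279 CPM in SRF-ICA1L, 85.0 to 154 CPM in SRF-RELA, 71.8 to 105 CPM in SRF-FOXO1 and 70.5 and 81.4 CPM in SRF-PDGFRB, so Srf counts do not check the labels of SRF-FOXO1 and SRF-PDGFRB. SRF-RELA 3, at 85.0 CPM, also lay within the range of pMSCV and is not checked by Srf. How an introduced construct counts towards the mouse gene is not given. Of 8 myoblast markers (among them Myod1, Myf5 and Des), all were in the table, with a summed level of 1627 to 1928 CPM in pMSCV, 927 to 1454 CPM in SRF, 673 to 1250 CPM in SRF-ICA1L, 604 to 903 CPM in SRF-RELA, 428 to 534 CPM in SRF-FOXO1, and 452 and 2165 CPM in SRF-PDGFRB 1 and 2. Summed differentiated-muscle markers were at 303 to 510 CPM in pMSCV and at 24.9 and 1031 CPM in SRF-PDGFRB 1 and 2, the extremes of all 17 libraries. Summed fibroblast markers stood at 2143 CPM in SRF-FOXO1 3 and at 101 to 836 CPM in the other 16 libraries. On the differentiated-muscle sum the 2 SRF-PDGFRB libraries stood furthest apart. Counts of members called by replicate number are given with and without that line.

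Between lines, the lactate exporter Slc16a3 had fitted levels below pMSCV at an unadjusted p under 0.05 in each of the 4 fusion lines. The same held in SRF-FOXO1 for the enzymes Hk2, Gpi1, Pfkl, Aldoa, Tpi1, Gapdh and Pgk1 and the hypoxia-response gene Ankrd37. In the edgeR fit with line as its only term, none of these passed after adjustment over all genes. Each line was compared with pMSCV, and each fusion line with SRF, by edgeR's quasi-likelihood test on all 15062 genes in 1 fit of the 17 libraries. A gene was called at a Benjamini-Hochberg adjusted p under 0.05. No member was called in any of these 9 comparisons. The share of all genes called was 0.00664% for SRF, 0.71% for SRF-FOXO1, 0% for SRF-ICA1L, 0.0199% for SRF-PDGFRB and 0% for SRF-RELA, each against pMSCV. Against SRF it was 0.00664% for SRF-FOXO1, 0% for SRF-ICA1L, 0.0531% for SRF-PDGFRB and 0.00664% for SRF-RELA. Few genes of any kind therefore passed in these comparisons, whose fit had no term for replicate number. With that term added over all 17 libraries, the shares against pMSCV were 6.78% for SRF-FOXO1 and 0.332% for SRF-PDGFRB. They stayed at 0.00664% for SRF and at 0% for SRF-ICA1L and SRF-RELA. In the 12 libraries paired by number, described below, they were 0.0137%, 2.99% and 6.48% in that order. The low shares without the term are thus not a measure of how far the lines differ. In the fit without it, 9 of 36 members had an unadjusted p under 0.05 in SRF-FOXO1 against pMSCV. All 9 had lower fitted levels, and 10.6% of all genes were lower at that threshold. The median log2 change of the 36 members there was -0.21, against 0.00 for all genes, and the part of the lower myoblast markers in SRF-FOXO1 in these values was not tested. By the same measure 20.9% of all genes differed in either direction. The unadjusted numbers against pMSCV were 0 for SRF (3.34% of all genes), 2 for SRF-ICA1L (6.23%), 3 for SRF-PDGFRB (7.7%) and 2 for SRF-RELA (8.05%). Against SRF they were 4 for SRF-FOXO1 (19.2%), 0 for SRF-ICA1L (1.56%), 1 for SRF-PDGFRB (5.03%) and 0 for SRF-RELA (3.21%). DESeq2 called 2 members in SRF-FOXO1 against pMSCV, Slc16a3 and Pfkl, where it called 9.07% of all genes, so the members' share lay below the background. It called 0 members in the other 8 comparisons. There it called 0.0266% of all genes for SRF, 0.318% for SRF-ICA1L, 0.475% for SRF-PDGFRB and 0.77% for SRF-RELA against pMSCV, and 4.3% for SRF-FOXO1, 0.0133% for SRF-ICA1L, 0.386% for SRF-PDGFRB and 0.0599% for SRF-RELA against SRF.

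The replicate number was then set against the line. In a model with both terms on all 17 libraries, by edgeR, 10 of 36 members differed between the 3 replicate numbers, where 8.17% of all genes did, and 0 of 36 differed between the 6 lines, where 0.365% of all genes did. The 10 were Slc2a1, Aldoc, Hif1a, Egln3, Ndrg1, Ddit4, Car9, Bhlhe40, Ero1a and Kdm3a. In the 15 libraries without SRF-PDGFRB, 21 members differed between numbers (29% of all genes) and 1, Slc16a3, between lines (5.08%). In the 12 libraries of the 4 lines whose numbers pair them, the counts were 27 of 35 (52%) and 1 (3.5%). Those 4 lines were chosen because their same-numbered libraries deviated together in these data. Counts and variance shares by number in these 12 libraries, here and below, are therefore not independent of that choice. DESeq2 called 19 members for replicate number (22.3% of all genes) and 6 for line (9.79%), namely Slc16a3, Hk1, Hk2, Aldoa, Tpi1 and Hif1a. Leaving out 1 library at a time moved the count for replicate number between 1 and 21, and the share of all genes called between 1.61% and 29.1%. The count was 1 without SRF-ICA1L 3, 2 without SRF 3 or SRF-RELA 3, 3 without SRF 1, SRF 2, SRF-ICA1L 1, SRF-ICA1L 2 or SRF-RELA 1, 4 without pMSCV 1, pMSCV 3 or SRF-RELA 2, 20 without SRF-PDGFRB 1 and 21 without SRF-PDGFRB 2. The count for line was 1 without SRF-FOXO1 2, where 3.22% of all genes were called. It was 0 in the other fits that left out a library of a line with 3 libraries.

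Among the 15 libraries of the 5 lines with 3 replicates, the variance of each gene's log2 CPM was divided between line and replicate number. The median member had 29% of its variance between lines and 43.5% between replicate numbers. For all genes the medians were 28.5% and 30.4%, and a term unrelated to expression would take 28.6% and 14.3% by its degrees of freedom alone. The share by number exceeded the share by line in 20 of 36 members (55.6%) and in 50.6% of all genes. The 10 further hypoxia-response genes had medians of 9.96% by line and 68.8% by number. The 17 glycolytic enzymes had medians of 33.5% and 40.4%. By these medians the hypoxia-response genes lay nearer the replicate-number end than the enzymes did, as the plot of the 2 shares shows. Among them P4ha1 (13.8% by line, 0.847% by number), P4ha2 (46.3% and 21.2%) and Ankrd37 (47.6% and 18.1%) had the larger share by line. Bhlhe40 (3.67% by line, 90.8% by number) and Ddit4 (1.26% and 88.7%) stood at that end, and Pfkl (71.9% by line, 10.5% by number), Slc16a3 (60.8% and 29%) and Pfkfb3 (54.2% and 0.344%) at the other. Without the SRF-FOXO1 and SRF-PDGFRB libraries, 12 remain, called the paired libraries here since their numbers pair them across 4 lines. There the median shares of the members were 15.4% by line and 67.5% by number, against 19.5% and 49.6% for all genes. The enzymes had 16.5% and 65.7% there, and the 10 further hypoxia-response genes 5.1% and 83.3%. The share by number was the larger in 82.4% of the enzymes and 80% of those 10 genes, against 72.3% of all genes.

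**Figure D1:**
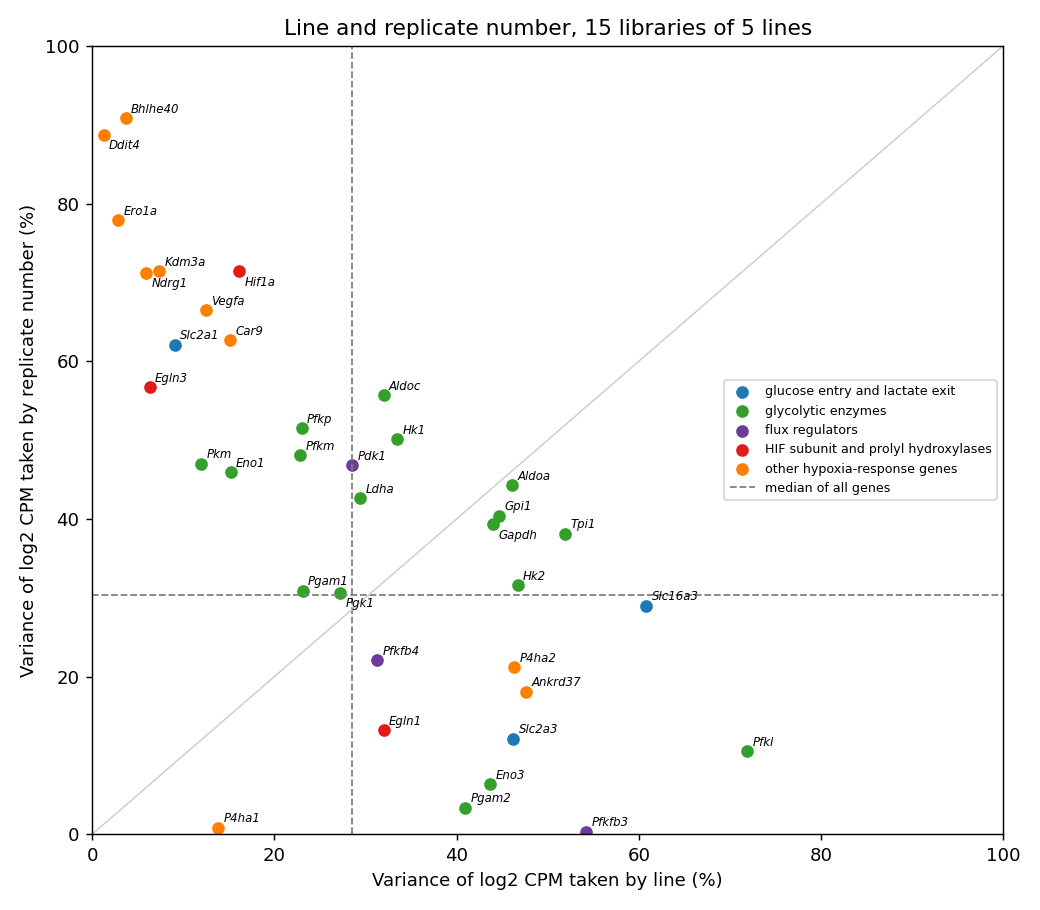
Share of the variance of log2 CPM taken by replicate number (vertical axis, %) against the share taken by line (horizontal axis, %) for the 36 members in 15 libraries, coloured by role, with dashed lines at the medians of all genes and a grey line where both shares are equal. Most hypoxia-response genes lie at the upper left, with Bhlhe40 at 3.67% and 90.8%, and Pfkl lies at the right with 71.9% and 10.5%.

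Across lines, libraries of number 3 had lower levels of the stress regulator Ddit4, the repressor Bhlhe40, Ndrg1, Vegfa, Ero1a, Kdm3a and Hif1a, of the glucose carrier Slc2a1, the enzymes Hk1, Hk2 and Aldoa and the kinase Pdk1, and a higher level of Aldoc. The folds ran from 1.22 for Hk1 to 3.64 for Ddit4. These come from the edgeR fit with line and replicate number, as number 3 against the mean of numbers 1 and 2. Of the 36 members 13 were called (11.3% of all genes were), 12 of them lower (5.72% of all genes) and 1 higher (5.57%). At an unadjusted p under 0.05 it was 18 members (29.8% of all genes). The median log2 change was -0.28 for the 36 members and -0.81 for the 10 further hypoxia-response genes, against 0.00 for all genes tested. DESeq2 called 18 members (18.8% of all genes). With edgeR the count was 18 without SRF-PDGFRB 1 or without SRF-PDGFRB 2, 18 in the 15 libraries without that line (21.2% of all genes) and 18 of 35 in the 12 paired libraries (31%). It was 9 without SRF-FOXO1 3 (9.48% of all genes), 8 without SRF 1 or SRF-ICA1L 2, 6 without pMSCV 3, 4 without SRF-RELA 3, and 3 without SRF 3 or SRF-ICA1L 3. Over all such fits the share of all genes called ran from 1.77% to 21.1%. Ddit4, Bhlhe40 and Hif1a were called in all 17 fits that left out 1 library, Aldoc in 15, Slc2a1, Ndrg1, Ero1a and Kdm3a in 13, Pdk1 in 10, Hk2 and Aldoa in 7, and Hk1 and Vegfa in 4. Number 3 was the lowest of the 3 libraries in all 5 lines for 10 members (6.7% of all genes), and all 5 number 3 libraries lay below all 10 others for 4 members, Hif1a, Ddit4, Bhlhe40 and Ero1a (1.84% of all genes).

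**Figure D2:**
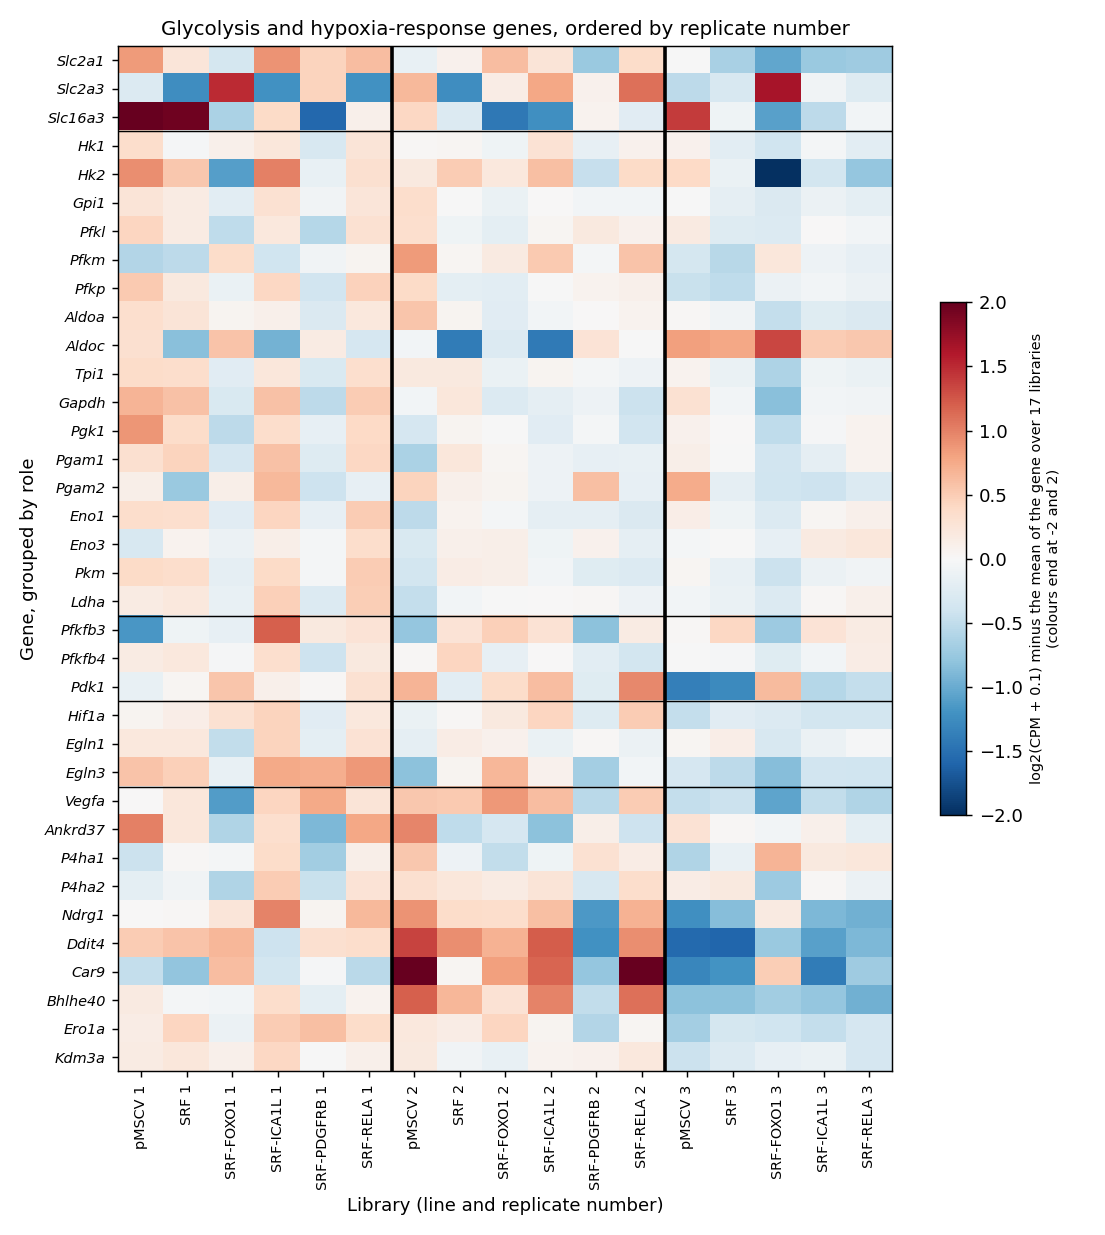
Heat map of log2(CPM + 0.1) minus the mean of each gene over 17 libraries (colours end at -2 and 2), with the 36 members in rows by role and the libraries in columns by replicate number. Ddit4, Bhlhe40, Ero1a and Hif1a are blue in all 5 libraries of number 3, and SRF-PDGFRB 2 is blue for Ndrg1, Ddit4, Bhlhe40 and Vegfa unlike the other 5 libraries of number 2.

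Markers of dividing cells and of myoblasts were read in the same contrast. Over the 17 libraries 1 of 8 was called in each list, where 11.3% of all genes were called. Of 8 dividing-cell markers, 1 (Top2a, log2 change 0.72) was called higher in number 3, and 8 of 8 were in the 12 paired libraries, where 31% of all genes were called. Their summed level in those lines was 2206 to 2446 CPM in number 1, 885 to 2509 CPM in number 2 and 3102 to 3343 CPM in number 3. Of 8 myoblast markers, 1 (Pax7, log2 change 1.79) was higher in number 3 over the 17 libraries and 5 were in the 12 paired ones. Their sum was highest in number 3 in each of the 4 paired lines. In SRF-FOXO1 it was lowest there, at 428 CPM against 534 and 481 CPM in numbers 1 and 2. Over the 17 libraries no marker of 16 for differentiated muscle or of 5 for fibroblasts was called, and in the 12 paired libraries 2 of the former were higher and 1 of the latter was lower. Summed fibroblast markers in number 3 stood at 166 to 254 CPM in the 4 paired lines and at 2143 CPM in SRF-FOXO1 3, most of it Dcn. Adipoq, Ptprc, Pecam1, Epcam and Cdh1, which define fat, blood, endothelial and epithelial cells, were not among the genes of the table. Other markers of these cells were present, namely 1 of 4 for fat, 2 of 5 for macrophages, 2 of 4 for endothelium and 1 of 4 for epithelium. Their sums reached at most 1.37, 7.62, 2.81 and 0.553 CPM in that order. Over the 17 libraries none was called in number 3, and in the 12 paired ones the fat marker was lower. The part of these markers in the changes by replicate number was not tested.

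Values per library are given in CPM with the replicates of a line in the order 1, 2, 3. Where number 1 or 2 is named as highest across lines, the share of all genes with that order was not counted. Among the carriers, Slc2a1 encodes the basal glucose transporter GLUT1. Slc2a1 was measured at 287, 142 and 158 CPM in pMSCV, at 188, 168 and 101 in SRF, at 124, 243 and 76.8 in SRF-FOXO1, at 295, 189.8 and 94.8 in SRF-ICA1L, at 217 and 94.9 in SRF-PDGFRB, and at 243, 204 and 97.1 in SRF-RELA. Number 3 was lowest in 4 of 5 lines, and in pMSCV number 2 lay lower still. Slc2a1 was lower in number 3 (log2 change -0.997, SE 0.24, edgeR adjusted p = 0.0223). SRF-PDGFRB 2, at 94.9 CPM, stood with the number 3 libraries.

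Slc16a3 (ENSMUSG00000025161, GRCm38 chr11:120948480-120960868, plus strand) is a protein-coding gene for MCT4, a lactate exporter. Slc16a3 lay at 42.5, 8.16 and 16.3 CPM in pMSCV, at 23.6, 5.03 and 5.71 in SRF, at 3.88, 2.20 and 2.81 in SRF-FOXO1, at 7.99, 2.55 and 4.21 in SRF-ICA1L, at 1.98 and 6.36 in SRF-PDGFRB, and at 6.56, 5.20 and 5.88 in SRF-RELA. The ranges of pMSCV and the fusion lines nearly met, with pMSCV 2 at 8.16 CPM and SRF-ICA1L 1 at 7.99 CPM. SRF 1 lay within the range of pMSCV. The share of all genes with such ranges was not counted, so no separation is read from them. The fitted log2 change against pMSCV was -2.91 in SRF-FOXO1 (SE 0.73, edgeR adjusted p = 0.0591), -2.18 in SRF-ICA1L (SE 0.71, adjusted p = 0.662), -2.42 in SRF-PDGFRB (SE 0.83, adjusted p = 0.523) and -1.92 in SRF-RELA (SE 0.70, adjusted p = 0.512). These comparisons share the pMSCV libraries, which themselves ran from 8.16 to 42.5 CPM. Without pMSCV 1 the changes were -2.04, -1.31, -1.55 and -1.05 in the same order, none called, and without pMSCV 2 the change in SRF-FOXO1 was -3.31 and was called (adjusted p = 0.0441). DESeq2 called it in SRF-FOXO1 (log2 change -2.90, adjusted p = 0.00119).

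Replicate numbers paired the libraries of SRF, pMSCV, SRF-RELA and SRF-ICA1L, so the fits with replicate number as a block bear on this gene. Those 4 lines were chosen because same-numbered libraries deviated together in these data. P-values between lines from these 12 libraries are therefore not independent of that choice. With the block in those 12 libraries, Slc16a3 was lower in SRF-ICA1L (log2 change -2.03, SE 0.35, edgeR adjusted p = 0.0165, 2.99% of all genes called) and in SRF-RELA (-1.55, SE 0.35, adjusted p = 0.0285, 6.48% called), and it was the only member called in either. The myoblast sum was lower than in pMSCV in all libraries of both lines (673 to 1250 and 604 to 903 CPM, against 1627 to 1928 CPM), and its part in these values was not tested. Slc16a3 was not called in SRF (-0.99, SE 0.34, adjusted p = 0.271), where 0.0137% of all genes were. Against SRF with the same block, no member was called in SRF-ICA1L (0.0956% of all genes, 2 of 35 members at an unadjusted p under 0.05 against 9.08% of all genes) or in SRF-RELA (0.656%, 4 of 35 members unadjusted against 17% of all genes). In the same libraries Slc16a3 was lower in number 2 than in number 1 (-1.71, SE 0.31, adjusted p = 0.0045). Over all 17 libraries with the block, 0 members were called in SRF-ICA1L or SRF-RELA against pMSCV, with 0% of all genes called in each. With the block over all 17 libraries, 4 of 36 members were called in SRF-FOXO1 against pMSCV (6.78% of all genes), all lower, where SRF-FOXO1 does not pair with pMSCV by number: Slc16a3 (-2.72, SE 0.61, adjusted p = 0.0322), Hk2 (-1.43, SE 0.37, adjusted p = 0.0423), Aldoa (-0.52, SE 0.14, adjusted p = 0.042) and Tpi1 (-0.54, SE 0.14, adjusted p = 0.0403). Slc2a3, the high-affinity glucose transporter GLUT3, held 1 to 22 counts per library (0.0454 to 0.981 CPM), where counting error is large.

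The enzymes are described in the order of the pathway. Hk1 and Hk2 encode hexokinases, which phosphorylate glucose on entry. Hk1 was found at 339.8, 272 and 283 CPM in pMSCV, at 263, 273 and 231 in SRF, at 287, 250.3 and 202 in SRF-FOXO1, at 313, 326 and 259.7 in SRF-ICA1L, at 214 and 238 in SRF-PDGFRB, and at 318, 283 and 229 in SRF-RELA. Hk2 stood at 228, 136 and 157 CPM in pMSCV, at 174, 169.7 and 109 in SRF, at 55.6, 139 and 28.2 in SRF-FOXO1, at 240.2, 180.4 and 92.1 in SRF-ICA1L, at 107 and 86.4 in SRF-PDGFRB, and at 149, 155 and 69.6 in SRF-RELA. Number 3 was lowest for both in 4 of 5 lines, and pMSCV was the exception. Hk2 was 1.94-fold lower in number 3 (log2 change -0.96, SE 0.25, edgeR adjusted p = 0.0319) and Hk1 changed less (-0.28, SE 0.08, adjusted p = 0.0478). In SRF-FOXO1 the 3 Hk2 values spanned 28.2 to 139 CPM, so that line reached from below all other libraries into their middle.

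Gpi1, the glucose-6-phosphate isomerase, lay between 274 and 430 CPM, with number 3 lowest in all 5 lines, and did not pass the test (log2 change -0.25, SE 0.08, adjusted p = 0.0596). Phosphofructokinase, the committed step, has 3 isoforms. Pfkl is the liver-type isoform. Pfkl was measured at 154, 144 and 128 CPM in pMSCV, at 127, 107 and 95.2 in SRF, at 79.5, 99.5 and 93.6 in SRF-FOXO1, at 131, 116 and 114 in SRF-ICA1L, at 76.3 and 131 in SRF-PDGFRB, and at 139.9, 120 and 109 in SRF-RELA. In SRF-FOXO1 against pMSCV the log2 change of Pfkl was -0.64 (SE 0.19, edgeR adjusted p = 0.0839), and DESeq2 called it (-0.64, adjusted p = 0.0234). Pfkp, the platelet-type isoform, lay between 59.3 and 121 CPM.

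Pfkm is the muscle isoform. Pfkm lay at 46.2, 126 and 54.8 CPM in pMSCV, at 48.2, 71.4 and 47.6 in SRF, at 89.8, 78.7 and 81.7 in SRF-FOXO1, at 52.8, 99.8 and 64.7 in SRF-ICA1L, at 66.4 and 67.6 in SRF-PDGFRB, and at 72.0, 103 and 62.4 in SRF-RELA. Number 2 was highest in each of the 4 paired lines, and pMSCV 2 held the highest value of all 17 libraries. Pfkm was higher in number 2 than in number 1 in the 12 paired libraries (log2 change 0.86) and in the 15 libraries (0.66), and over all 17 it was not called (0.56, SE 0.18, adjusted p = 0.167).

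Aldolase splits the 6-carbon sugar, and Aldoa is the muscle isoform. Aldoa was found at 812, 938 and 652 CPM in pMSCV, at 769, 662 and 609 in SRF, at 663, 548 and 460.1 in SRF-FOXO1, at 687, 616 and 542 in SRF-ICA1L, at 522 and 644 in SRF-PDGFRB, and at 742, 669.5 and 525 in SRF-RELA. Number 3 was lowest in all 5 lines, and it was lower by a log2 change of -0.35 (SE 0.09, edgeR adjusted p = 0.0331). Aldoc, the brain isoform, was the 1 member that was higher in number 3. Aldoc stood at 0.830, 0.617 and 1.22 CPM in pMSCV, at 0.318, 0.183 and 1.18 in SRF, at 1.003, 0.516 and 1.78 in SRF-FOXO1, at 0.289, 0.179 and 0.961 in SRF-ICA1L, at 0.735 and 0.801 in SRF-PDGFRB, and at 0.490, 0.639 and 0.979 in SRF-RELA. Number 3 was the highest library in all 5 lines (7.12% of all genes showed that) and the log2 change was 1.40 (SE 0.27, adjusted p = 0.0113), on 4 to 40 counts per library. Tpi1 encodes triose-phosphate isomerase. Tpi1 was measured at 608, 539 and 496 CPM in pMSCV, at 599, 537 and 429 in SRF, at 402, 428 and 306 in SRF-FOXO1, at 550.1, 487 and 443 in SRF-ICA1L, at 381 and 459.8 in SRF-PDGFRB, and at 591, 438 and 428 in SRF-RELA. The lowest library was SRF-FOXO1 3, and number 3 was lowest in all 5 lines (-0.31, SE 0.09, adjusted p = 0.0513).

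Per kilobase of annotated exon (GENCODE M21), the enzymes of lower glycolysis had the highest levels of the 36 genes, with Pkm at a mean of 563 CPM per kilobase, Gapdh at 471, Eno1 at 328 and Pgk1 at 325. Processed copies of Gapdh, Pgk1, Pkm and Ldha exist in the genome, and Eno1b, a near-identical copy of Eno1, held 210 to 390 CPM in the table, so the level of these genes is uncertain where counting could split reads. Gapdh encodes glyceraldehyde-3-phosphate dehydrogenase and is a common reference gene. Gapdh lay at 3002, 1792 and 2314 CPM in pMSCV, at 2816, 2175 and 1794 in SRF, at 1518, 1540 and 1045 in SRF-FOXO1, at 2796, 1648 and 1795 in SRF-ICA1L, at 1304 and 1735 in SRF-PDGFRB, and at 2652, 1381 and 1781 in SRF-RELA. Pgk1 was found at 1308, 561 and 749 CPM in pMSCV, at 916, 735 and 708 in SRF, at 493, 701 and 499.5 in SRF-FOXO1, at 900, 607 and 697 in SRF-ICA1L, at 628 and 685 in SRF-PDGFRB, and at 934, 544 and 742 in SRF-RELA. Number 1 was highest in each of the 4 paired lines for both genes, and in SRF-FOXO1 and SRF-PDGFRB it was not.

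The next 3 enzymes are phosphoglycerate mutase (Pgam1), enolase (Eno1) and pyruvate kinase (Pkm). Pgam1 stood at 372, 193 and 324 CPM in pMSCV, at 403, 349 and 295 in SRF, at 234, 306 and 228 in SRF-FOXO1, at 444, 276 and 263 in SRF-ICA1L, at 247 and 264 in SRF-PDGFRB, and at 397, 267 and 313 in SRF-RELA. Eno1 was measured at 2196, 1207 and 1902 CPM in pMSCV, at 2177, 1819 and 1631 in SRF, at 1479, 1684 and 1428 in SRF-FOXO1, at 2322, 1525 and 1773 in SRF-ICA1L, at 1536 and 1532 in SRF-PDGFRB, and at 2455, 1418 and 1860 in SRF-RELA. Pkm lay at 3617, 2138 and 2844 CPM in pMSCV, at 3540, 3070 and 2489 in SRF, at 2436, 2989 and 2059 in SRF-FOXO1, at 3588, 2663 and 2558 in SRF-ICA1L, at 2692 and 2347 in SRF-PDGFRB, and at 3917, 2276 and 2624 in SRF-RELA. Number 1 was the highest library for all 3 genes in each of the 4 paired lines, an order whose share among all genes was not counted. In the 12 paired libraries the log2 change in number 2 against number 1 was -0.70 for Gapdh, -0.72 for Pgk1 (phosphoglycerate kinase), -0.59 for Pgam1, -0.62 for Eno1, -0.53 for Pkm and -0.49 for Ldha, and all 6 were called. In that fit 14 of 35 members were called (35.7% of all genes were), 9 lower and 5 higher (Pfkm, Vegfa, Ddit4, Car9 and Bhlhe40), a share near the background. Over all 17 libraries none of the 36 was called (0.339% of all genes), with 8 at an unadjusted p under 0.05 (19% of all genes) and 2 by DESeq2 (Car9 and Bhlhe40, with 5.18% of all genes called). The count was 5 in the 15 libraries (9.15% of all genes) and 6 without SRF-FOXO1 2 (8.94%). In SRF-FOXO1 against pMSCV, Gapdh had a log2 change of -0.79 (SE 0.29, edgeR adjusted p = 0.15) and Pgk1 of -0.63 (SE 0.29, adjusted p = 0.231).

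**Figure D3:**
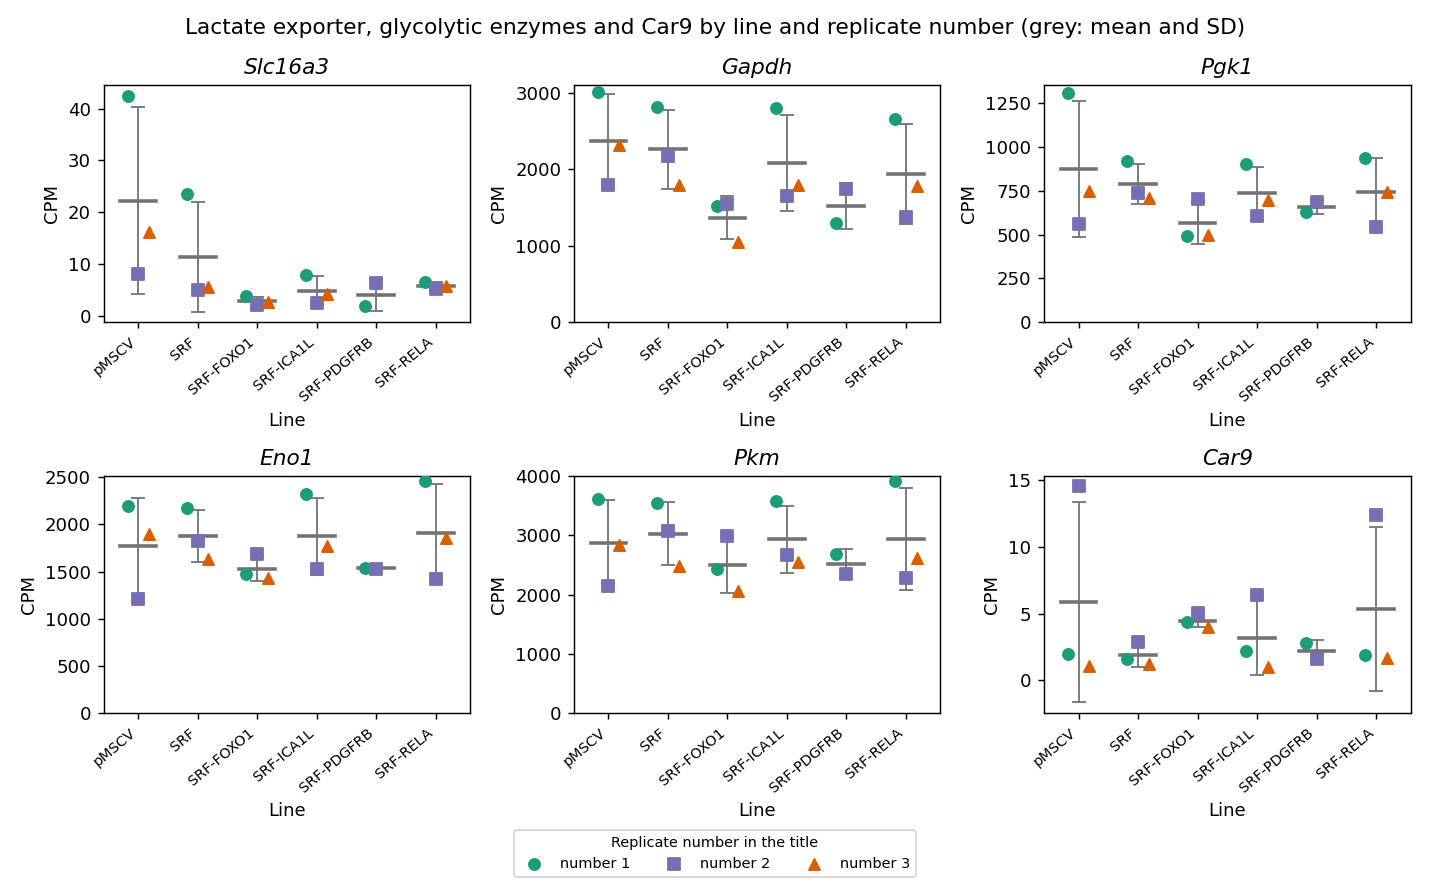
CPM per library (points, coloured by replicate number) of Slc16a3, Gapdh, Pgk1, Eno1, Pkm and Car9 in the 6 lines, with the mean and SD of each line in grey. Number 1 is highest for Gapdh, Pgk1, Eno1 and Pkm in the 4 lines paired by number (pMSCV, SRF, SRF-RELA and SRF-ICA1L), number 2 is highest for Car9 in those lines, and Slc16a3 spans 8.16 to 42.5 CPM in pMSCV.

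Ldha encodes the lactate dehydrogenase subunit that favours lactate. Ldha was found at 903, 581 and 775 CPM in pMSCV, at 931, 776 and 733 in SRF, at 728, 804 and 662 in SRF-FOXO1, at 1125, 808 and 814 in SRF-ICA1L, at 668 and 819.8 in SRF-PDGFRB, and at 1129, 753 and 864 in SRF-RELA. It ran from 581 CPM in pMSCV 2 to 1129 CPM in SRF-RELA 1, and number 1 was the highest in the 4 paired lines. Pgam2 and Eno3 are the muscle isoforms of phosphoglycerate mutase and enolase, both induced when myoblasts differentiate. Pgam2 stood at 1.57, 1.98 and 2.48 CPM in pMSCV, at 0.818, 1.55 and 1.26 in SRF, at 1.57, 1.501 and 1.07 in SRF-FOXO1, at 2.31, 1.34 and 1.05 in SRF-ICA1L, at 1.06 and 2.22 in SRF-PDGFRB, and at 1.27, 1.28 and 1.17 in SRF-RELA. Eno3 was measured at 249, 249.9 and 303 CPM in pMSCV, at 325, 334 and 308 in SRF, at 286, 337 and 276 in SRF-FOXO1, at 337, 291 and 350.4 in SRF-ICA1L, at 301 and 329.8 in SRF-PDGFRB, and at 397, 275 and 363 in SRF-RELA. Neither followed the replicate number (3.35% and 6.38% of the variance). Eno3 was well expressed in every library, at a mean of 180 CPM per kilobase of exon, and had a log2 change of 0.37 in SRF-RELA against pMSCV (SE 0.15, adjusted p = 0.566).

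Pfkfb3 and Pfkfb4 make fructose-2,6-bisphosphate, an activator of phosphofructokinase, and Pdk1 encodes the kinase that shuts pyruvate dehydrogenase. Pfkfb3 lay at 5.30, 7.01 and 12.2 CPM in pMSCV, at 11.4, 14.6 and 16.04 in SRF, at 10.7, 16.9 and 7.27 in SRF-FOXO1, at 27.7, 14.8 and 14.7 in SRF-ICA1L, at 13.9 and 6.81 in SRF-PDGFRB, and at 14.7, 13.5 and 13.5 in SRF-RELA. Pfkfb3 was lowest in pMSCV 1 and highest in SRF-ICA1L 1, and its log2 change in SRF-ICA1L against pMSCV was 1.22 (SE 0.39, adjusted p = 0.662). Pfkfb4 stayed between 14.7 and 26.4 CPM. Pdk1 was found at 36.4, 64.6 and 15.7 CPM in pMSCV, at 41.6, 35.0 and 16.7 in SRF, at 59.3, 52.2 and 62.5 in SRF-FOXO1, at 43.4, 62.3 and 27.1 in SRF-ICA1L, at 41.3 and 34.1 in SRF-PDGFRB, and at 50.1, 79.1 and 29.1 in SRF-RELA. Pdk1 in number 3 was lowest in 4 lines and highest in SRF-FOXO1. It was 1.89-fold lower in number 3 over all lines (log2 change -0.92, SE 0.24, edgeR adjusted p = 0.03). Within SRF-FOXO1 the change was 0.17 and in the 4 paired lines -1.22, a difference that did not pass its own test (1.39, SE 0.33, adjusted p = 0.121). SRF-FOXO1 has 1 library per number, so this test takes its spread from the other lines, as does that of Ndrg1.

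Hif1a (ENSMUSG00000021109, GRCm38 chr12:73901375-73947530, plus strand) encodes the oxygen-regulated subunit of HIF, whose protein level is set mainly by degradation rather than by its RNA. Hif1a stood at 303, 268 and 211 CPM in pMSCV, at 321, 299 and 249.8 in SRF, at 363, 336 and 243 in SRF-FOXO1, at 398, 397 and 228 in SRF-ICA1L, at 250 and 245 in SRF-PDGFRB, and at 341, 418 and 226 in SRF-RELA. All 5 libraries of number 3 (211 to 249.8 CPM) lay below all 10 of numbers 1 and 2 in those lines (268 to 418 CPM), and the 2 SRF-PDGFRB libraries stood at 245 and 250 CPM. Hif1a was lower in number 3 by a log2 change of -0.56 (SE 0.09, edgeR adjusted p = 0.0066). Egln3 encodes a prolyl hydroxylase that is itself a HIF target. Egln3 was measured at 76.1, 28.9 and 40.5 CPM in pMSCV, at 71.4, 53.6 and 35.7 in SRF, at 46.4, 81.2 and 28.5 in SRF-FOXO1, at 86.5, 54.3 and 39.2 in SRF-ICA1L, at 84.9 and 32.1 in SRF-PDGFRB, and at 93.3, 49.4 and 39.0 in SRF-RELA. It differed between the 3 numbers, with number 1 highest in the 4 paired lines, while number 3 against the other 2 did not pass (-0.78, SE 0.24, adjusted p = 0.0525). Egln1, the main oxygen sensor among these hydroxylases, lay between 55.0 and 106 CPM.

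Among the further hypoxia-response genes, Ddit4 had the largest change in number 3 of the 36 members over the 17 libraries. Ddit4 (ENSMUSG00000020108, GRCm38 chr10:59949669-59951834, minus strand) encodes REDD1, an inhibitor of mTORC1 that low oxygen and other stresses induce. Ddit4 lay at 70.3, 126 and 16.9 CPM in pMSCV, at 73.5, 94.1 and 16.4 in SRF, at 78.6, 80.3 and 29.4 in SRF-FOXO1, at 37.0, 115 and 23.3 in SRF-ICA1L, at 61.8 and 21.3 in SRF-PDGFRB, and at 63.0, 94.4 and 26.5 in SRF-RELA. Number 3 lay between 16.4 and 29.4 CPM, below every library of numbers 1 and 2 in the same 5 lines, and SRF-PDGFRB 2 stood within that range at 21.3 CPM. Ddit4 was 3.64-fold lower in number 3 (log2 change -1.87, SE 0.32, edgeR adjusted p = 0.00758), and the log2 change lay between -1.99 and -1.72 when 1 library at a time was left out. In the 12 paired libraries it was also higher in number 2 than in number 1 (0.83).

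Bhlhe40 (ENSMUSG00000030103, GRCm38 chr6:108660629-108666925, plus strand) encodes a repressor of the basic helix-loop-helix family. Bhlhe40 was found at 128, 259 and 64.2 CPM in pMSCV, at 111, 179 and 64.1 in SRF, at 109, 138 and 69.7 in SRF-FOXO1, at 144, 224 and 66.4 in SRF-ICA1L, at 99.2 and 80.4 in SRF-PDGFRB, and at 118, 242 and 58.1 in SRF-RELA. In all 5 lines with 3 libraries the order was number 2, then 1, then 3. It was 2.44-fold lower in number 3 (log2 change -1.29, SE 0.17, edgeR adjusted p = 0.0027). Ndrg1 encodes a stress-response protein. Ndrg1 stood at 210, 388 and 89.2 CPM in pMSCV, at 212, 268 and 116 in SRF, at 246, 266 and 235 in SRF-FOXO1, at 416, 317 and 112 in SRF-ICA1L, at 216 and 94.1 in SRF-PDGFRB, and at 326, 337 and 107 in SRF-RELA. Number 3 was lowest in every line, by a wide gap in 4 of them and by little in SRF-FOXO1, where the 3 libraries lay between 235 and 266 CPM. The fold was 2.32 (log2 change -1.22, SE 0.28, adjusted p = 0.0197). The change within SRF-FOXO1 was -0.12 against -1.52 in the 4 paired lines, a difference of 1.40 (SE 0.36, adjusted p = 0.133).

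**Figure D4:**
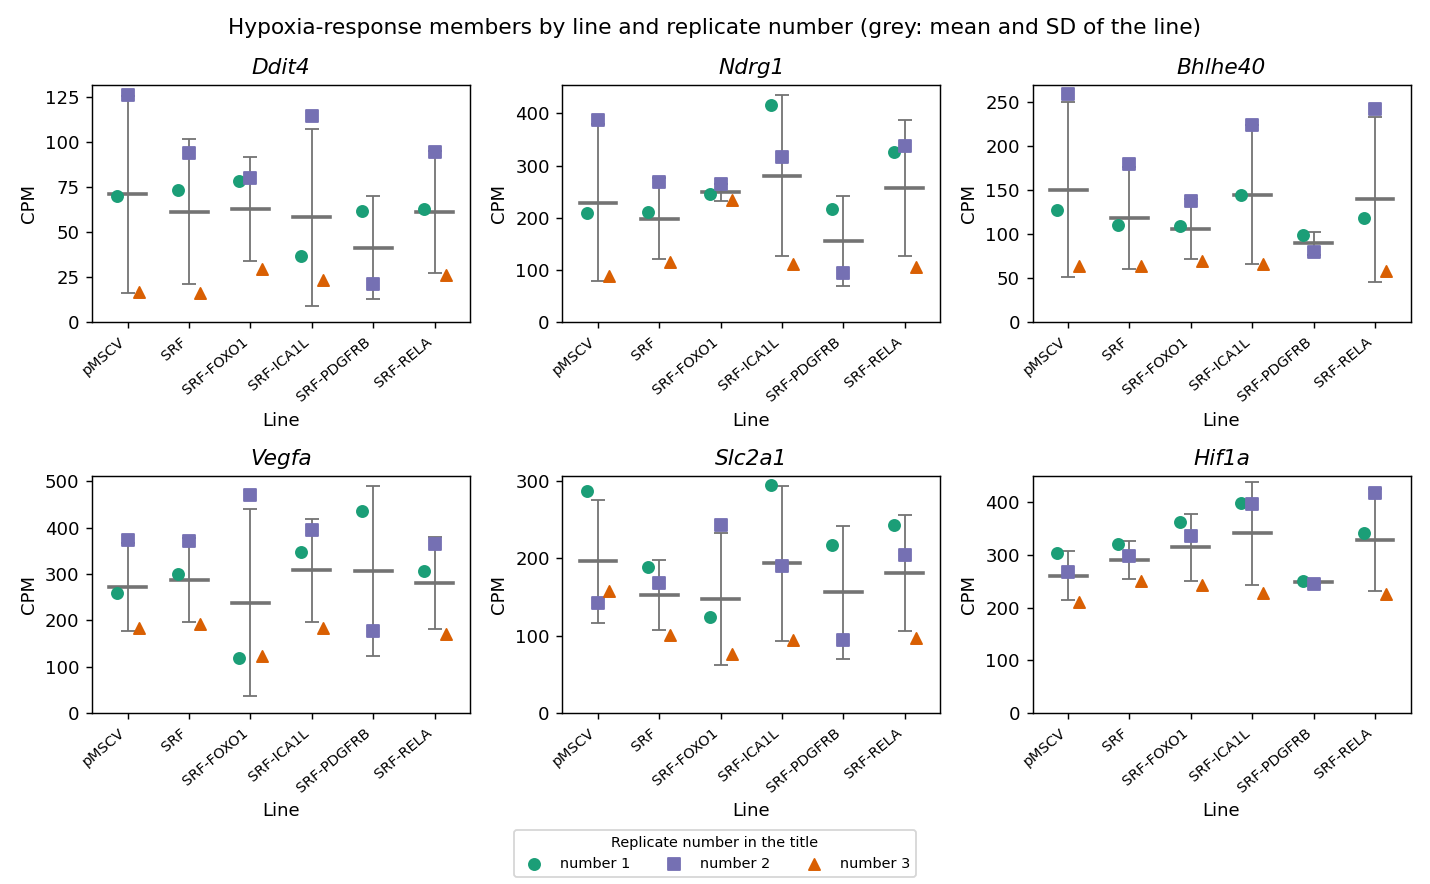
CPM per library (points, coloured by replicate number) of Ddit4, Ndrg1, Bhlhe40, Vegfa, Slc2a1 and Hif1a in the 6 lines, with the mean and SD of each line in grey. Number 3 is lowest in every line with 3 libraries for Ddit4, Ndrg1, Bhlhe40 and Hif1a, with Ddit4 at 16.4 to 29.4 CPM there and SRF-PDGFRB 2 at 21.3 CPM.

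Vegfa encodes the main angiogenic growth factor. Vegfa was measured at 259, 374 and 184 CPM in pMSCV, at 299.8, 372 and 191 in SRF, at 119, 471 and 124 in SRF-FOXO1, at 347, 395 and 183 in SRF-ICA1L, at 436 and 177 in SRF-PDGFRB, and at 307, 365 and 169.8 in SRF-RELA. Number 3 was lowest in 4 lines, and in SRF-FOXO1 number 1 lay slightly lower, at 119 against 124 CPM. Vegfa was 1.92-fold lower in number 3 (log2 change -0.94, SE 0.27, edgeR adjusted p = 0.0467), and this call was kept in 4 of the 17 fits that left out 1 library. Number 2 was the highest library in the 5 lines with 3 libraries, by most in SRF-FOXO1. In a test of SRF-FOXO1 against the 4 paired lines for number 2 against number 1, chosen after seeing the data, Vegfa was the 1 member called (0.564% of all genes), and 16 members differed at an unadjusted p under 0.05 (25.9% of all genes).

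Car9 encodes the membrane carbonic anhydrase IX. Car9 lay at 1.98, 14.6 and 1.08 CPM in pMSCV, at 1.59, 2.88 and 1.18 in SRF, at 4.36, 5.02 and 4.01 in SRF-FOXO1, at 2.17, 6.39 and 1.01 in SRF-ICA1L, at 2.76 and 1.60 in SRF-PDGFRB, and at 1.91, 12.4 and 1.68 in SRF-RELA. Number 2 was highest in all 5 lines, most in pMSCV and SRF-RELA, and number 3 was lowest in all 5. Car9 differed between the 3 numbers, while number 3 against the other 2 did not pass (log2 change -1.38, SE 0.47, adjusted p = 0.0734), nor did number 2 against 1 over 17 libraries (1.39, SE 0.48, adjusted p = 0.189). In the 12 paired libraries number 2 was higher than number 1 by a log2 change of 2.08.

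Ero1a encodes an oxidase of the endoplasmic reticulum. Ero1a was found at 101, 106 and 56.8 CPM in pMSCV, at 122, 101 and 71.2 in SRF, at 84.4, 123 and 68.9 in SRF-FOXO1, at 129.9, 94.6 and 65.2 in SRF-ICA1L, at 139 and 61.0 in SRF-PDGFRB, and at 118, 93.8 and 72.3 in SRF-RELA. The 5 number 3 libraries lay below all 10 others of those lines, and the log2 change was -0.69 (SE 0.16, edgeR adjusted p = 0.022). Kdm3a encodes a histone H3 lysine demethylase. Kdm3a stood at 81.1, 82.8 and 53.2 CPM in pMSCV, at 84.1, 68.9 and 59.4 in SRF, at 77.2, 65.0 and 64.5 in SRF-FOXO1, at 96.0, 75.6 and 65.4 in SRF-ICA1L, at 72.1 and 76.6 in SRF-PDGFRB, and at 77.0, 83.4 and 57.1 in SRF-RELA. Number 3 was lowest in every line, by little in SRF-FOXO1. Over all lines the log2 change of Kdm3a was -0.40 (SE 0.09, adjusted p = 0.0209). The collagen prolyl hydroxylase genes P4ha1 (96.8 to 251 CPM) and P4ha2 (27.1 to 63.4 CPM) and the ankyrin-repeat gene Ankrd37 (1.06 to 4.20 CPM) were not called by replicate number. Ankrd37 had a log2 change of -1.16 in SRF-FOXO1 against pMSCV (SE 0.44, adjusted p = 0.158).

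**Figure D5:**
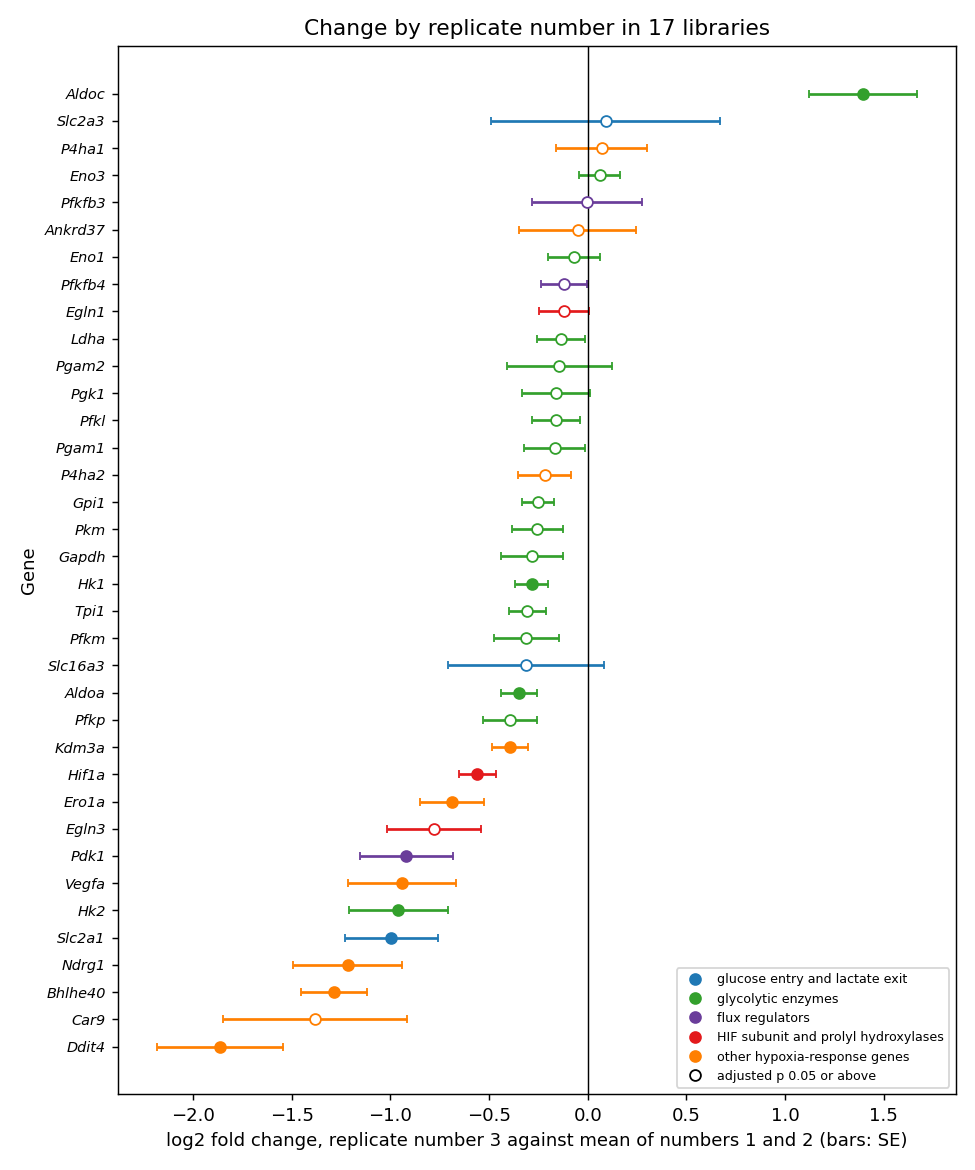
Log2 fold change in number 3 against the mean of numbers 1 and 2 (horizontal axis, bars are SE) for the 36 members over 17 libraries, coloured by role, with filled points for an adjusted p under 0.05. Ddit4 lies lowest at -1.87, most enzymes lie within 0.5 below 0, and Aldoc lies highest at 1.40.

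The SRF-PDGFRB libraries did not follow the numbers of the other lines. Across all genes, the deviations of SRF-PDGFRB 2 from its line's mean correlated with those of the 5 number 3 libraries at 0.249 to 0.637, with the 5 other number 2 libraries at -0.509 to -0.0857, and with the 5 other number 1 libraries at -0.345 to 0.0877, where a line of 2 libraries has deviations that mirror each other. In a model with a separate replicate effect for this line, chosen after seeing the data, its change from number 1 to number 2 differed from that of the 4 paired lines in 10 of 36 members (19.9% of all genes). It was lower by comparison for Vegfa, Ndrg1, Ddit4, Car9, Bhlhe40 and Ero1a and higher for Slc16a3, Pfkl, Gapdh and Ldha. For Ddit4 the log2 change was -1.54 in SRF-PDGFRB and 0.83 in the 4 lines. With 1 library per number in SRF-PDGFRB, this test takes its spread from the other lines. The differentiated-muscle sum was 24.9 CPM in SRF-PDGFRB 1 and 1031 CPM in SRF-PDGFRB 2, and its part in these values was not tested.

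Other genes of the same pathways were counted from lists that hold no member. In number 3 against numbers 1 and 2, 5 of 30 other hypoxia-inducible genes were called, where 11.3% of all genes were. Lower were Bnip3 (log2 change -1.21), a mitophagy receptor, Hmox1 (-2.05), heme oxygenase, Stc2 (-0.92), a secreted glycoprotein, and Gys1 (-0.48), glycogen synthase, and higher was Stc1 (2.13). Of 9 HIF-system genes in the table, 1 was higher (Arnt2, a HIF partner subunit, 1.60) and none was lower. Of 12 other glycolytic isoforms, 2 were lower, Ldhb (-1.41), the lactate dehydrogenase subunit of oxidative tissue, and Eno2 (-1.39), the neuronal enolase. Of 13 genes of pyruvate entry to mitochondria, Pdk4 was higher (1.85), a pyruvate dehydrogenase kinase that rises in fasting, and Pdk3 (-0.35) and Mpc1 (-0.35) were lower. Of 8 pentose phosphate genes, Tkt (-0.92) and G6pdx (-0.39) were lower. Pdk1 and Pdk4, which encode kinases of the same complex, thus moved in opposite directions. After the first, these counts rest on 1 to 3 genes a list and are not read against the background of 11.3%. In the 12 paired libraries, where 31% of all genes were called, 2 of the 30 were higher and 11 lower, 5 of the 9 higher and 2 lower, 2 of the 12 higher and 5 lower, 1 of the 13 higher and 2 lower, and 1 of the 8 higher and 3 lower. None of these lists had a gene called in the 9 comparisons between lines.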

How the data were processed

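The authors deposited 1 table of raw read counts per gene for 17 libraries, which was used as given. Per the submitters' processing notes, FastQC 0.11.8, Trimmomatic 0.39, HISAT2, featureCounts and Subread 2.0.0 were used with GRCm38. The annotation and the settings for strand and shared reads are not given in the sources used here. The libraries were stranded mRNA libraries of total RNA, per the labels' protocols. Line and replicate number came from the titles. Every gene in the table reached 10 counts in at least 3 libraries, and edgeR's low-count filter removed none of the 15062. Counts were scaled by TMM and tested with edgeR 4.0.16 (quasi-likelihood, limma 3.58.1, R 4.3.3), with line, or with line and replicate number, as terms. P-values were adjusted over all genes, the log2 prior count was 2, and the scripts were tested on simulated data. Other normalization, filters, samples, left-out libraries, the replicate block and DESeq2 1.42.0 were tried.

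Same-numbered libraries of SRF, pMSCV, SRF-RELA and SRF-ICA1L deviated together (correlations across genes of 0.392 to 0.789 in 18 pairs, against -0.585 to 0.114 in 36 pairs with other numbers), so the numbers were taken to pair those 12 libraries. That pairing comes from the data, as the labels do not explain the numbers. The members, the lists and the tests were chosen with earlier results of these data known. Values in every library are given for members called by edgeR in a comparison or a replicate-number test over all 17 libraries and for Hif1a, Slc2a1, Ldha, Vegfa, Pfkm, Pgam2 and Eno3, and beyond that rule for Slc16a3, Pfkl, Tpi1, Gapdh, Pgk1, Pgam1, Eno1, Pkm and Pfkfb3, which were chosen after their values were seen. Lists name the genes with the smallest p.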

Additional observations from a re-analysis of the deposited data

Results flagged for a closer look

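The replicate-number effect of 10 members differed between SRF-PDGFRB and the 4 paired lines, by a test of the difference itself chosen after seeing the data, on 17 libraries with 6 residual degrees of freedom. The log2 change from number 1 to number 2 in SRF-PDGFRB minus that in the 4 lines was 3.40 for Slc16a3 (SE 0.73, edgeR adjusted p = 0.0127), 0.96 for Pfkl (SE 0.18, adjusted p = 0.00715), 1.11 for Gapdh (SE 0.28, adjusted p = 0.0225) and 0.78 for Ldha (SE 0.23, adjusted p = 0.0414). It was -1.62 for Vegfa (SE 0.22, adjusted p = 0.002), -1.41 for Ndrg1 (SE 0.43, adjusted p = 0.0447), -2.36 for Ddit4 (SE 0.53, adjusted p = 0.0154), -2.86 for Car9 (SE 0.81, adjusted p = 0.0337), -1.15 for Bhlhe40 (SE 0.25, adjusted p = 0.012) and -0.94 for Ero1a (SE 0.24, adjusted p = 0.0223). The same test called 19.9% of all genes, and SRF-PDGFRB has 1 library per number.

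In SRF-FOXO1 the change of Vegfa from number 1 to number 2 exceeded that of the 4 paired lines by a log2 value of 1.68 (SE 0.22, edgeR adjusted p = 0.0219), with 0.564% of all genes called. SRF-FOXO1 also has 1 library per number, so both tests take their spread from the other lines. At an unadjusted p under 0.05, 16 members differed in this way (25.9% of all genes). The change was 1.99 in SRF-FOXO1, from 119 to 471 CPM, and 0.32 in the 4 lines. For number 3 against numbers 1 and 2, no member differed between SRF-FOXO1 and the 4 lines (0.146% of all genes called), with 7 members at an unadjusted p under 0.05 (16.6% of all genes). DESeq2 was not run on this model.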

How the results depend on the processing

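With the replicate block, the count of members called in SRF-FOXO1 against pMSCV was 4 over all 17 libraries (6.78% of all genes), against 0 without it (0.71%), and in the 12 paired libraries it was 1 in SRF-ICA1L (2.99%) and 1 in SRF-RELA (6.48%) against pMSCV. The block changed no other count between lines. In the 6 libraries of SRF and SRF-FOXO1 it gave 0, an alternative chosen after seeing the data. DESeq2 called 2 members in SRF-FOXO1 against pMSCV (9.07% of all genes), 2 in number 2 against number 1 (5.18%), 6 for any difference between lines (9.79%) and 19 for any difference between numbers (22.3%). Number 2 against number 1 gave 14 in the 12 paired libraries (35.7% of all genes) and 5 in the 15 (9.15%). The median share of variance by number was 67.5% in the 12 libraries. The cause of these shifts was not tested. With 1 library left out, the counts ran from 1 to 21 for any difference between numbers, 0 to 3 between lines, 0 to 6 for number 2 against number 1, 3 to 18 for number 3 against the others, and 0 to 1 for SRF-FOXO1 against pMSCV. For single genes, 439 values kept their direction and side of the threshold, 37 passed it, 72 fell below it and 1 reversed: Slc16a3 in SRF-RELA against SRF, not called either way, went from -0.96 to 0.13 without SRF 1, the range with 1 library left out being -1.32 to 0.13. Members under about 1 CPM, Slc2a3 and Aldoc, are limited by counting error.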
